A study of Mus musculus with 24 samples.

Results

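Bone marrow-derived macrophages whose GLUT1 gene had been deleted were activated in either of 2 opposed ways, and the resulting RNA profiles were set directly against each other. The array titles named 4 GLUT1 KO M1 arrays and 4 GLUT1 KO M2 arrays, 8 of the 24 arrays of the study. KO cells came from mice in which the myeloid Cre driver LysM-Cre had been crossed onto floxed Slc2a1 (Slc2a1M-/-). Marrow had been cultured for 6 days with 20 ng/ml of the macrophage growth factor M-CSF, and the cells were then left for 24 hours with 5 ng/ml LPS plus 10 ng/ml IFNγ (KO M1), with 10 ng/ml IL-4 (KO M2) or with no stimulus (KO M0). Macrophages of floxed Slc2a1 fl/fl control mice (WT) went through the same 3 conditions, again on 4 arrays each. RNA was labelled with Cy3 and hybridised to 1-colour Agilent mouse arrays, whose scanner output was used here. The design text called the 4 arrays of a group biological replicates without saying whether each was a separate mouse, so the p-values below measure the spread between these samples. LysM-Cre acts in the myeloid lineage at large, and neither the deleted exons nor how complete the deletion was came with the labels.

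LPS is a bacterial cell wall component that is sensed by TLR4 and its partner CD14 and that activates NF-κB and interferon regulatory factors, while IFNγ signals through JAK kinases. IL-4 signals through its receptor to STAT6 and induces a separate set of genes that includes mannose receptors, chitinase-like proteins and arginase 1. GLUT1 is the main facilitative glucose transporter of macrophages, and the M1 state is known for high glucose use, nitric oxide production and an interrupted tricarboxylic acid cycle, the M2 state for oxidative metabolism.

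Levels are given as log2 of the scanner's processed signal minus the 75th percentile of all gene probes on the same array, with the brightest probe standing for each gene. A difference of 1 is therefore a doubling, and levels of different genes are not comparable because each probe has its own brightness. Genes were called with limma fitted across all 24 arrays at a Benjamini-Hochberg adjusted p under 0.05, and every adjusted p below comes from that fit. In these whole-culture samples, fewer cells of a type and less RNA per cell cannot be told apart. Where all arrays of the dimmer group left a probe short of being well above background, the fold is a bound, written as at least N-fold, taken against the lowest signal that was well above background. The KO M1 arrays were dimmer, their 75th percentile averaging 1581 ± 89 units of intensity in KO M1 and 2286 ± 202 units in KO M2 (SD, n = 4 each). The median gene was 0.31 higher in KO M1 than in KO M2 on this scale and 0.05 higher after quantile normalization, and small changes should be read relative to that shift.

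A set of arrays stood apart. The final pair of positions on each of the 3 slides held 1 array of every group, among them KO M1 replicate 3 and KO M2 replicate 4, together called set 4 below. Transcripts of the Y-linked Uty, Ddx3y and Eif2s3y were well above background on 0 of 2 set 4 arrays and on 6 of 6 others of the 8, while Xist, the X-inactivation RNA, was well above background on 2 of 2 and 0 of 6. On all 24 arrays those 3 genes were well above background on 0 of 6 set 4 arrays and 18 of 18 others, and Xist was well above background on 6 of 6 set 4 arrays and on 2 of 18 others. Another Y-linked gene, Kdm5d, did not follow this pattern and was well above background on 6 of 6 set 4 arrays and 18 of 18 others. The labels gave no sex. Interferon-inducible genes were less far apart between the 2 set 4 arrays: the median difference of 25 antiviral genes was 3.84 in set 4 and 5.34 over all 8 arrays, and 5.93 without set 4. The part of set 4 in the results was not tested beyond these with and without values. Without set 4 the number of genes called was 16448, against 14846 with it.

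Slc2a1, the gene deleted in these cells, was still measured on all 8 arrays, with 1 probe, at 118809864 to 118809923 of chromosome 4 (mm9). Its level was 6.09, 6.11, 5.81 and 5.99 in KO M1 arrays, against 3.64, 3.07, 3.16 and 3.04 in KO M2 arrays. The groups did not overlap, and the transcript was 6.84-fold higher in KO M1 (log2 difference 2.77 ± 0.35 SE, adjusted p = 7.48e-07). In WT cells the difference was 2.34, and the KO and WT differences were not called different (0.43 ± 0.49 SE, adjusted p = 0.584). Between genotypes within a state, Slc2a1 differed by 0.25 in KO M1 minus WT M1 (adjusted p = 0.583) and by -0.18 in KO M2 minus WT M2 (adjusted p = 1), so the probe does not show the deletion. Where this probe lies relative to the floxed exons was not tested. Lyz2, the lysozyme gene that carries the LysM-Cre allele, was 4.77, 4.14, 5.27 and 4.33 in KO M1, against 3.46, 3.08, 3.12 and 4.85 in KO M2, so the groups overlapped through set 4. Its difference of 1.00 was called (adjusted p = 0.0257), but the call was lost under 8 of 18 other settings.

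The activation state changed the measured level of 57.5% of the genes of GLUT1-deleted macrophages. Of 25826 genes, 14846 were called, 8870 (34.3%) higher in KO M1 and 5976 (23.1%) lower in KO M1. Counts of list members given below are to be read beside these shares of all genes. Of the calls, 59.7% were higher in KO M1 on this scale, 47.3% after quantile normalization, 50.9% when arrays were scaled by the 75th percentile of the probes above background on every array, and 67.3% after normexp background correction. At least 2-fold changes were called for 4499 genes higher (17.4%) and 3765 lower (14.6%). The 4 KO M1 and 4 KO M2 values did not overlap for 13322 of the 25760 genes with all 8 values (51.7%). The untreated KO M0 cells were usually nearer to KO M2: this held for 88.3% of the genes at least 2-fold higher in KO M1 and for 88.1% of those at least 2-fold lower. Of the 4499 higher genes, KO M0 lay between the activated states for 2779 (61.8%) and below both for 1652, and of the 3765 lower genes it lay between them for 1935 (51.4%) and above both for 1699. Both placements use the same 4 KO M0 arrays. Over all genes, pairs of arrays correlated at 0.968 to 0.99 within KO M1, 0.969 to 0.99 within KO M2 and 0.896 to 0.933 between the states.

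**Figure D1:**
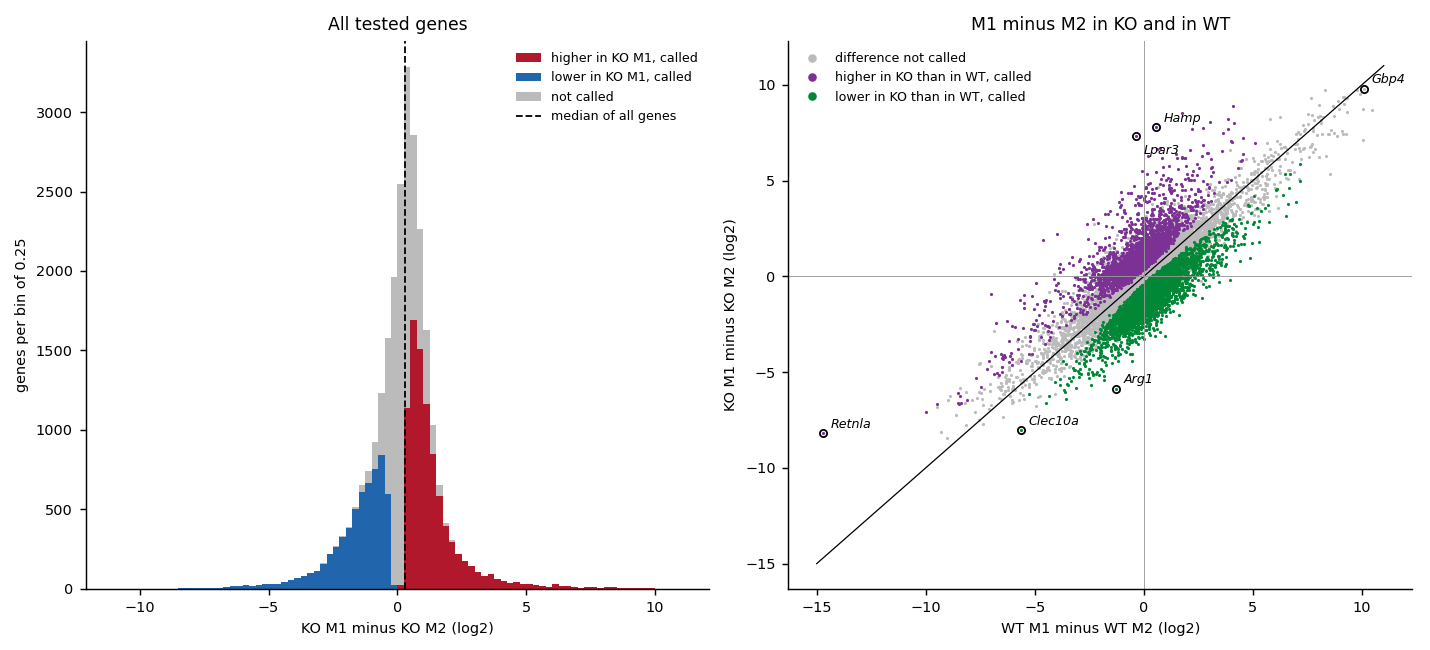
In the left panel the horizontal axis is the KO M1 minus KO M2 log2 difference and the vertical axis the number of genes in each bin of 0.25, with called genes coloured by direction and a dashed line at the median of 0.31. In the right panel each point is a gene, with the KO M1 minus KO M2 difference on the vertical axis, the WT M1 minus WT M2 difference on the horizontal axis, and genes whose difference between genotypes was called in purple or green. Lpar3 and Hamp, not well above background on any KO M2 array, lie high for KO cells and near 0 for WT cells.

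The genes furthest apart included known targets of each stimulus, and 4 of their promoters are shown because they hold short sequence matches to the motifs of the transcription factors named above. Promoters run from 250 bases before to 50 after the annotated start and come from RefSeq (GRCm38.p6), which gave one for 14184 of the tested genes (54.9%). Cxcl10 (chr5:92348840-92349139, minus strand) and Ifit1bl1 (chr19:34599378-34599677, minus strand) were among the 15 genes highest in KO M1, and the capitals mark an ISRE-type match, from -213 to -204 and from -23 to -14 relative to the start. Retnla (chr16:48842359-48842658, plus strand) and Chil4 (chr3:106219430-106219729, minus strand) were among the 15 lowest, and the capitals mark a STAT6-type match from -145 to -136 and a GAS match from -200 to -192.
Cxcl10: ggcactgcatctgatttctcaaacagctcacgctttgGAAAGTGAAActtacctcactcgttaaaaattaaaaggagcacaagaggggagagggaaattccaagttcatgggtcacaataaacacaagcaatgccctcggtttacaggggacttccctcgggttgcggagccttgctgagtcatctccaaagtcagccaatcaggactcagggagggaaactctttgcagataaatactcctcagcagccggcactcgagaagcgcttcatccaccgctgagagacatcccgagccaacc
Ifit1bl1: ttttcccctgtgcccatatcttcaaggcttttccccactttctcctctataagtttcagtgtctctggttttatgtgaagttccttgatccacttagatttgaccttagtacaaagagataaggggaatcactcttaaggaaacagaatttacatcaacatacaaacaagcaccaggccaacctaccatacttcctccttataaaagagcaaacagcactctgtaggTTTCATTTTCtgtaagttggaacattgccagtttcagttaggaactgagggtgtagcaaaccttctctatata
Retnla: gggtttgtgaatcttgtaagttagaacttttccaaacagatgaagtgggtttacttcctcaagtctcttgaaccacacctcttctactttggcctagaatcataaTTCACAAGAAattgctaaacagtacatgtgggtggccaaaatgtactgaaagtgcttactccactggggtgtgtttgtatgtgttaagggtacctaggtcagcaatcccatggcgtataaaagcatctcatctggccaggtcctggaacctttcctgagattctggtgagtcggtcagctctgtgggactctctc
Chil4: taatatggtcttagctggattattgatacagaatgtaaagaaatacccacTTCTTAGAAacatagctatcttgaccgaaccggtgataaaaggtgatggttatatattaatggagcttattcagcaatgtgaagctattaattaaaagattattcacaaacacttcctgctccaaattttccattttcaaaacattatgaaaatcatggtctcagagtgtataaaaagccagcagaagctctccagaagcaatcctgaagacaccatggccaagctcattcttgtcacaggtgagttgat
The letters searched on both strands were GAAA and GAAA with 2 bases between them for the ISRE type, bound by interferon regulatory factors and ISGF3, TTC and GAA with 4 bases between them for the STAT6 type, and TTC and GAA with 3 bases between them for GAS, the site of STAT dimers. Of 923 genes with a promoter that were called at least 4-fold higher in KO M1, 9.53% held the ISRE type. It stood in 3.23% of 1083 genes with a promoter called at least 4-fold lower, and in 3.84% of all tested genes with a promoter. The STAT6 type stood in 7.48% of the genes higher in KO M1, 8.59% of those lower and 7.11% of all tested. GAS stood in 10.9% of those higher, 7.76% of those lower and 8.78% of all tested. Among the largest changes, Slc6a19, high in KO M1, also held a STAT6-type match and Kif14, low in KO M1, an ISRE-type match, so a match did not go with 1 direction. The NF-κB type, GGGA and TTTCC with 1 base between them, stood in 1.19% of those higher, 0.462% of those lower and 0.536% of all tested. The GAA end of a GAS or STAT6-type match can overlap an ISRE-type match. A match is a description of letters and not a bound site.

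Receptors and first signalling steps for LPS and IFNγ were mostly higher in KO M1. Of 16 such genes, 11 rose and 3 fell, with a median difference of 1.11 against 0.31 over all genes. Tlr4 was counted as a rise by its brightest probe (0.95), while its other probes were called lower, at -2.35 and -1.54. Stat2, a transcription factor of the type I interferon response, was 6.79, 6.57, 6.25 and 6.58 in KO M1, against 3.13, 3.23, 3.07 and 4.22 in KO M2, a 9.16-fold difference (adjusted p = 1.15e-08). The highest KO M2 value was that of set 4, still far below every KO M1 array. Cd14 was 7.96-fold higher in KO M1 (adjusted p = 2.12e-07). The ligand-binding chain of the IFNγ receptor went the other way: Ifngr1 was 3.22, 3.23, 3.55 and 3.02 in KO M1, against 5.17, 5.57, 5.08 and 5.73 in KO M2, a log2 difference of -2.14 ± 0.21 (SE, adjusted p = 3.04e-08). KO M0 had 5.51 ± 0.29 (SD, n = 4), close to KO M2. Irak4, a kinase of the TLR pathway, had a difference of -2.16 (adjusted p = 1.48e-10), while its 2 probes ran from -2.16 to -0.71.

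The IL-4 receptor itself was higher in KO M1 than in the IL-4-treated KO M2 cells. Il4ra, the shared receptor chain, was 4.52, 4.45, 4.33 and 4.31 in KO M1, against 2.75, 2.72, 2.48 and 3.34 in KO M2 (2.99-fold, adjusted p = 1.17e-05). Il13ra1, the chain that pairs with it on non-lymphoid cells, was 13.3-fold higher in KO M1 (adjusted p = 1.29e-07). Socs2, an inhibitor of cytokine signalling, stood far lower in KO M1, with a mean of -1.78 ± 0.38 against 2.84 ± 0.30 in KO M2 and -2.82 ± 0.52 in KO M0 (SD, n = 4 each), a KO M1 minus KO M2 difference of -4.62 (adjusted p = 2.45e-11). The Socs2 probes ran from -4.62 to -1.01. Of 10 measured genes of IL-4 sensing, 5 rose and 2 fell, and the median was 0.32, beside 0.31 over all genes. Stat6 was not called (difference -0.19, adjusted p = 0.124).

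Transcription factors divided by the state they are linked to. Of 16 factors linked to M1, 11 rose and 2 fell (median 2.50), and of 15 linked to M2, 3 rose and 8 fell (median -1.94). Irf7, an interferon regulatory factor that is itself interferon-induced, was 8.62, 8.61, 8.12 and 8.50 in KO M1, against 2.59, 2.31, 1.63 and 5.55 in KO M2 (43.5-fold, adjusted p = 3.29e-05). The high KO M2 value belonged to set 4. Irf4, which acts downstream of STAT6 in mouse macrophages, was -5.53, -4.61, -4.56 and -4.94 in KO M1, against 3.76, 3.47, 3.39 and 3.56 in KO M2, a difference of -8.46 ± 0.23 (SE, adjusted p = 1.36e-15). That probe was well above background on 1 of 4 KO M1 arrays, and the other Irf4 probe differed by -3.48. Egr2, another IL-4-induced factor, was -0.39, -1.11, 0.10 and -1.22 in KO M1 against 6.08, 5.98, 5.86 and 5.68 in KO M2 (difference -6.55, adjusted p = 4.13e-09). The groups were far apart for both factors, with KO M0 in between at -1.41 ± 0.14 for Irf4 and 2.22 ± 1.16 for Egr2 (SD, n = 4). Batf3, a partner of IRF factors, had a difference of -5.66 (adjusted p = 9.78e-07). Members of each list also moved against its name: Cebpd fell by 2.42 (adjusted p = 7.39e-08) among the M1-linked factors, and Kdm6b, a histone H3 lysine demethylase induced by both LPS and IL-4 in mouse macrophages, was 10.3-fold higher in KO M1 (adjusted p = 7.85e-08).

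Every measured inflammatory cytokine was higher in KO M1, 16 of 16 beside 34.3% of all genes, with a median difference of 3.64. The other 3 listed cytokines, Il23a, Lif and Csf2, were not among the tested genes. Genes high only in M1 cells could be kept through their M1 arrays, so this count is a description. The same holds for the interferon-inducible lists below. Il12b, which encodes the p40 chain of IL-12 and IL-23, was 6.51, 7.41 and 7.48 on the KO M1 arrays that gave a value and -3.22, -2.87, -2.56 and -1.74 on KO M2 arrays. KO M1 replicate 3 gave no value because its spot was rejected as an outlier by the scanner software. The difference was 9.73 ± 0.48 (SE, adjusted p = 7.21e-12). Il6, a pleiotropic inflammatory cytokine, was 5.61, 5.04, 1.68 and 5.22 in KO M1 against -1.96, -3.95, -4.63 and -5.14 in KO M2 (317-fold, adjusted p = 1.91e-06), and the low KO M1 value was that of set 4. Tnf, the tumour necrosis factor gene, was 3.75, 4.14, 2.89 and 4.18 in KO M1, against 0.51, -0.42, -0.30 and -1.08 in KO M2 (16.7-fold, adjusted p = 1.26e-06). Neither gene's groups overlapped. Il1a, the interleukin-1α gene, was 344-fold higher in KO M1 (adjusted p = 3.11e-07), with KO M2 well above background on 2 of 4 arrays.

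Chemokines moved in both directions. Of 14 linked to M1, 10 rose (median 3.62), while Ccl2, Ccl3, Ccl4 and Ccl7 were not called, with differences of 2.34, 1.11, 1.07 and 1.94. Cxcl10, a ligand of CXCR3, was 7.31, 7.31, 5.63 and 6.87 in KO M1, against -1.74, -2.42, -3.12 and -1.49 in KO M2 (501-fold, adjusted p = 1.74e-11). Cxcl9, which binds the same receptor, was 7.95, 7.81, 7.55 and 7.76 in KO M1, against -1.14, -0.99, -1.63 and 1.33 in KO M2 (332-fold, adjusted p = 9.76e-06). Ccl12, a monocyte attractant of the mouse, was 25.6-fold higher in KO M1 (adjusted p = 2.39e-10). Of 7 measured chemokines linked to M2, 4 fell and 2 rose. Ccl24, an eosinophil attractant, was -0.55, -0.09, -0.01 and -0.77 in KO M1 against 4.13, 3.38, 2.92 and 4.61 in KO M2 (difference -4.12, adjusted p = 5.49e-08), and Ccl17, a ligand of CCR4, fell by 3.62 (adjusted p = 3.30e-05). The other CCR4 ligand, Ccl22, was higher in KO M1 instead, at -2.34, -1.29, -4.05 and -1.62 against -3.02, -6.68, -4.85 and -4.29 in KO M2. Those groups overlapped, and the 5.23-fold difference was called (adjusted p = 0.00936). Ccl8 was 13.5-fold higher in KO M1 (adjusted p = 0.00716), but KO M2 replicate 4 in set 4 stood at 3.10, beside -2.17 to 0.14 on the other KO M2 arrays.

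**Figure D2:**
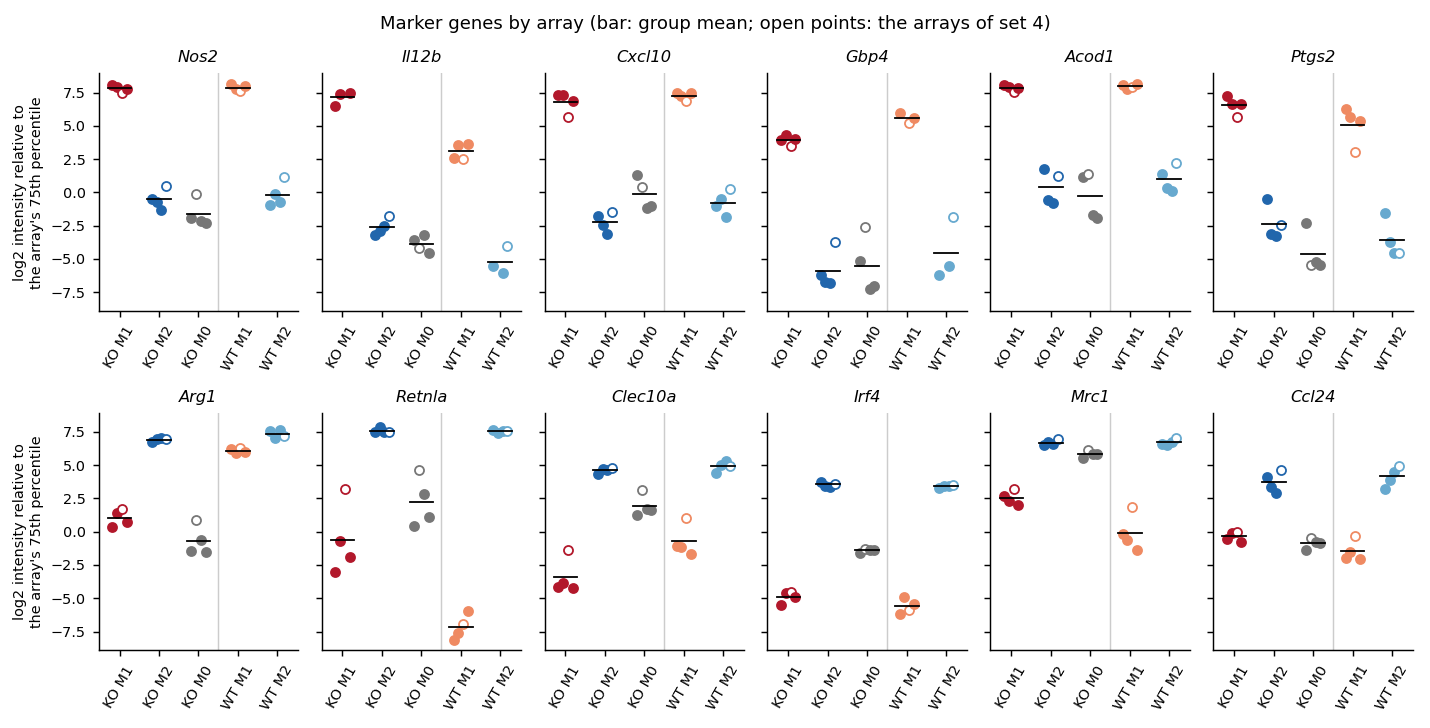
Each panel is a gene, and each point an array, with the log2 intensity relative to the array's 75th percentile on the vertical axis and the groups KO M1, KO M2, KO M0, WT M1 and WT M2 from left to right. Bars are group means and open points the arrays of set 4, such as the KO M1 array at 3.23 for Retnla.

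Interferon-inducible defence genes moved in 1 direction. All 25 measured antiviral genes and all 13 measured guanylate-binding and immunity-related GTPases rose in KO M1, with medians of 5.34 and 5.03. Without set 4 the medians were 5.93 and 5.42, and after quantile normalization 4.83 and 4.60. Rsad2, the antiviral radical-SAM enzyme viperin, was 7.83, 7.57, 6.57 and 7.55 in KO M1, against -0.81, -1.78, -1.94 and 0.20 in KO M2 (353-fold, adjusted p = 5.00e-10). Iigp1, a GTPase that attacks the vacuoles of intracellular parasites, was 7.09, 6.73, 6.57 and 6.66 in KO M1, against -3.05, -2.92, -3.97 and -0.49 in KO M2 (662-fold, adjusted p = 1.50e-07). Set 4 was the highest KO M2 array for both genes, and no KO M1 array came near it. Gbp4 had the largest difference among the GTPases, 9.80 (adjusted p = 1.70e-07), and was well above background on 1 of 4 KO M2 arrays, that of set 4. Gbp6 had a difference of 9.50, Ifi44 of 8.98 and Ifit1 of 8.15 (adjusted p = 1.16e-06, 4.42e-06 and 4.52e-09). The early activation antigen Cd69 was 4.18, 3.68, 3.39 and 3.56 in KO M1, against -5.56, -5.67, -6.93 and -4.45 in KO M2, a difference of 9.35 (adjusted p = 5.47e-13). That probe was well above background on 1 of 4 KO M2 arrays, and the other Cd69 probe differed by 6.11.

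Genes of antigen presentation were mostly higher in KO M1. All 15 measured genes of class I loading and the immunoproteasome were higher in KO M1 (median 1.90). Tap1, the peptide transporter, was 6.64, 6.43, 6.22 and 6.47 in KO M1, against 3.00, 3.01, 2.87 and 3.17 in KO M2 (10.8-fold, adjusted p = 1.87e-12), and Nlrc5, the class I transactivator, was 18.6-fold higher (adjusted p = 1.62e-12). Of 11 class II genes, 7 rose and 1 fell (median 1.43, and 0.49 in set 4). After quantile normalization 4 of them rose and 2 fell, with a median of 0.86. H2-Aa, a class II α chain, was 3.37-fold higher in KO M1 (adjusted p = 0.00162), and H2-Oa, the α chain of the peptide-editing modulator H2-O, 13.1-fold higher (adjusted p = 1.13e-08). H2-DMb2, a chain of the peptide exchanger H2-DM, was not well above background on any KO M1 array and was at least 4.05-fold lower there (adjusted p = 5.01e-09).

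Ligands that stimulate or restrain T cells were split. Of 13 measured, 9 rose and 4 fell. Cd86 was 5.38, 5.37, 3.95 and 5.35 in KO M1, against -1.36, -0.64, -0.88 and 1.23 in KO M2 (42.9-fold, adjusted p = 7.04e-07). Its paralogue Cd80, which binds the same receptors, went the other way, at 0.25, 0.59, -0.49 and 0.43 in KO M1 against 3.66, 3.34, 3.45 and 3.42 in KO M2 (difference -3.27, adjusted p = 2.45e-12). The groups were separate for both genes, although the 4 probes of Cd80 ranged from -3.27 to -0.28. The PD-1 ligands were opposed in the same way: Cd274, which encodes PD-L1, was 16.1-fold higher in KO M1 (adjusted p = 1.06e-11), and Pdcd1lg2, which encodes PD-L2, was -1.73, -1.81, -1.45 and -2.16 in KO M1 against 2.48, 2.32, 2.16 and 3.60 in KO M2 (difference -4.43, adjusted p = 1.18e-07). Cd40, the receptor of CD40 ligand, was 29.9-fold higher in KO M1 (adjusted p = 1.61e-12), and the checkpoint ligand Cd276 fell by 2.80 (adjusted p = 0.00138).

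Enzymes of arginine use moved in opposite directions. Nos2, the inducible nitric oxide synthase, was 8.09, 7.95, 7.49 and 7.76 in KO M1, against -0.51, -0.75, -1.32 and 0.49 in KO M2 (325-fold, adjusted p = 6.18e-12). Arg1, the arginase that competes with it for arginine, was 0.36, 1.41, 1.71 and 0.72 in KO M1, against 6.75, 7.0, 7.01 and 6.94 in KO M2, a difference of -5.87 ± 0.37 (SE, adjusted p = 4.62e-11). The mitochondrial arginase Arg2 had the opposite sign to Arg1 and was 11-fold higher in KO M1 (adjusted p = 7.03e-04). Slc7a2, an arginine importer induced in both states in mouse macrophages, was 10.8-fold higher in KO M1 (adjusted p = 1.81e-07), with KO M2 at 1.65 ± 0.43 and KO M0 at -3.18 ± 0.51 (SD, n = 4 each). Gatm, which diverts arginine to creatine synthesis, fell by 5.34 (adjusted p = 2.00e-13). Of the 17 genes of arginine, nitric oxide and polyamine metabolism, 8 rose and 6 fell, and the median was 0.24 with set 4 and -0.01 without it. Among 7 genes of the phagocyte oxidase group, Sod2 among them, 5 rose and 1 fell. Cybb, the catalytic subunit, was 5.08-fold higher and Sod2, the mitochondrial superoxide dismutase, 6.87-fold higher in KO M1 (adjusted p = 7.09e-10 and 2.58e-09).

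Genes induced by IL-4 were lower in KO M1 in 22 of 28 measured cases and higher in 4, with a median of -4.30 against 0.31 over all genes and a background of 23.1% of genes lower. Genes high only in M2 cells could be kept through their M2 arrays, so this count too is a description. Retnla, which encodes the secreted protein RELMα, was -3.02, -0.73, 3.23 and -1.90 in KO M1, against 7.51, 7.84, 7.49 and 7.46 in KO M2 (difference -8.18 ± 1.41 SE, adjusted p = 4.46e-05). The KO M2 arrays agreed closely, while the KO M1 arrays ran from -3.02 to 3.23 with set 4 at the top. Chil3, a chitinase-like lectin, was 0.75, 3.63, 4.37 and 1.49 in KO M1, against 7.21, 7.52, 7.02 and 7.27 in KO M2 (difference -4.70, adjusted p = 3.10e-05), and its relative Chil4 had a difference of -6.82 (adjusted p = 1.69e-07). The KO M2 level of Chil3 exceeded every KO M1 array. Mrc1, the mannose receptor, was 2.68, 2.27, 3.21 and 1.98 in KO M1, against 6.51, 6.73, 6.61 and 6.94 in KO M2 (difference -4.16, adjusted p = 5.42e-08). KO M0 already stood at 5.86 ± 0.25 for Mrc1 (SD, n = 4), so most of that gap lay between KO M1 and the unstimulated cells. Clec10a, a galactose-binding lectin, was -4.17, -3.83, -1.4 and -4.25 in KO M1 against 4.35, 4.74, 4.67 and 4.76 in KO M2 (difference -8.04, adjusted p = 3.40e-10). Its close paralogue Mgl2 could not be given a single direction: the brightest probe was 0.08 higher in KO M1 (adjusted p = 0.795) and the other probe differed by -10.02 (adjusted p = 1.11e-10). Tgm2, a transglutaminase often used as an M2 marker, was 8.59-fold higher in KO M1 (adjusted p = 1.16e-09), at 7.38, 7.48, 7.05 and 7.47 against 3.49, 4.56, 4.53 and 4.39 in KO M2.

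The 2 cyclooxygenases, which start prostanoid synthesis, moved in opposite directions. Ptgs2, the inducible enzyme, was 7.22, 6.66, 5.69 and 6.61 in KO M1, against -0.50, -3.16, -3.30 and -2.42 in KO M2 (475-fold, adjusted p = 1.15e-07). Ptgs1, the constitutive one, was -1.06, -1.29, -0.68 and -2.05 in KO M1, against 5.25, 4.80, 4.69 and 4.70 in KO M2 (difference -6.13, adjusted p = 5.47e-13). Neither enzyme's groups overlapped. Hpgd, which breaks prostaglandins down, fell by 2.88 with overlapping groups (adjusted p = 0.00274). Of the 16 measured genes of prostaglandin and leukotriene synthesis, 5 rose and 8 fell. Among 14 adenosine and nucleotide genes 5 rose and 5 fell, beside 34.3% of all genes higher and 23.1% lower. Adora2a, the anti-inflammatory adenosine receptor, was 25-fold higher in KO M1 (adjusted p = 9.83e-09), and the ADP receptor P2ry1 fell by 2.59 (adjusted p = 8.60e-06).

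Brakes on NF-κB and IL-1 rose together with the cytokines. Of 14 genes listed as feedback inhibitors of NF-κB, 11 rose and 1 fell (median 1.57). The list also held the prostaglandin synthesis gene Ptges2, which was not called. Socs3, an inhibitor of cytokine receptor signalling, was 6.03, 5.96, 5.14 and 5.56 in KO M1, against 1.18, 0.28, -0.14 and -0.07 in KO M2 (41-fold, adjusted p = 1.56e-10), and the ubiquitin-editing enzyme gene Tnfaip3 was 7.38-fold higher (adjusted p = 8.22e-10). Of 12 genes of the inflammasome list, the inhibitors Il1rn and Il18bp among them, 9 rose and 2 fell. The IL-1 receptor antagonist Il1rn was 7.68, 7.55, 7.02 and 7.55 in KO M1 against 1.86, 0.60, 1.00 and 1.82 in KO M2 (70.1-fold, adjusted p = 2.60e-10), the IL-18 inhibitor Il18bp was 76.5-fold higher and the cytosolic LPS sensor Casp4 9.11-fold higher (adjusted p = 4.57e-07 and 1.93e-05).

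Surface receptors changed gene by gene. Of 13 measured receptors for chemoattractants 4 rose and 7 fell: Ccr7, the lymph node homing receptor, was 2.76, 3.91, 1.44 and 3.15 in KO M1, against -5.50, -4.93, -5.36 and -2.77 in KO M2 (175-fold, adjusted p = 6.37e-08), with KO M2 well above background on 1 of 4 arrays. Fpr1, a receptor for formylated bacterial peptides, was 76.3-fold higher in KO M1 (adjusted p = 3.59e-09), and Ccr2, the receptor of Ccl2, fell by 3.14 (adjusted p = 1.90e-06). Of 10 Toll-like receptors 5 rose and 3 fell, with Tlr2 5.03-fold higher and Tlr8 lower by -2.64 in KO M1 (adjusted p = 1.34e-07 and 1.46e-08). Tlr4 was among the 5 by its brightest probe only, and its other probes were called lower. Among Fcγ receptors, the activating Fcgr1 was 16.4-fold and Fcgr4 4.73-fold higher (adjusted p = 4.25e-08 and 5.44e-04), and the inhibitory Fcgr2b fell by 1.59 (adjusted p = 0.001). Of 22 efferocytosis and scavenger receptors 5 rose, 7 fell and 10 were not called, beside 34.3% of all genes higher and 23.1% lower. Marco, a scavenger receptor for bacteria, was 7.35, 5.55, 7.33 and 5.39 in KO M1 against 0.88, -2.00, -1.79 and 2.83 in KO M2 (86-fold, adjusted p = 1.27e-04), whereas the lipoprotein receptor Scarb1 fell by 2.77 (adjusted p = 9.50e-10). Cd163, the haemoglobin scavenger receptor, was not well above background on any KO M1 array and was at least 14.5-fold lower there (adjusted p = 3.48e-09).

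The complement genes divided between an induced and a lowered set. Of 12 measured, 7 rose and 5 fell, and the 5 included all 3 chains of C1q. Cfb, factor B of the alternative pathway, was 7.29, 7.36, 7.20 and 7.14 in KO M1, against -1.38, -2.12, -2.54 and 1.72 in KO M2 (321-fold, adjusted p = 1.32e-05). The highest KO M2 array was again that of set 4. The protease gene C1s1 was 46.6-fold higher (adjusted p = 1.48e-07, 2 of 4 KO M2 arrays well above background). Its other probe differed by 1.55.

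Glycolytic genes were higher in KO M1. Of 23 genes of glycolysis and lactate, 18 rose and 5 fell, with a median difference of 0.97 against 0.31 over all genes. After quantile normalization 14 rose and 5 fell, with a median of 0.38. Pfkfb3, which makes the activator of phosphofructokinase, was 6.41, 6.13, 5.92 and 5.70 in KO M1, against 1.82, 1.95, 2.17 and 2.24 in KO M2 (15.9-fold, adjusted p = 1.43e-10). Pfkl, a phosphofructokinase subunit, was 4.20, 4.17, 4.06 and 4.23 in KO M1, against 0.17, 0.00, -0.02 and 0.99 in KO M2 (14.7-fold, adjusted p = 1.17e-11). Hk2, the inducible hexokinase, was 5.69, 5.72, 6.28 and 5.66 in KO M1, against 2.62, 2.68, 2.76 and 2.88 in KO M2 (8.6-fold, adjusted p = 9.56e-11). No array of either state overlapped the other for these 3 enzymes. Against the direction of the list, the liver-type regulator isoform Pfkfb1 had a difference of -2.66 and the lactate dehydrogenase B gene Ldhb of -2.35 (adjusted p = 3.71e-04 and 1.16e-04).

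The other glucose transporter genes moved in both directions. Of 8 measured, Slc2a1 included, 3 rose and 3 fell, beside 34.3% of all genes higher and 23.1% lower. Slc2a6, a transporter of lysosomal membranes, was 6.57, 6.23, 6.43 and 6.18 in KO M1, against 5.05, 4.39, 4.43 and 4.28 in KO M2 (3.52-fold, adjusted p = 2.01e-06). Slc2a4, the insulin-responsive transporter gene, was well above background on no KO M1 array and on all 4 KO M2 arrays, and was at least 8.04-fold lower in KO M1 (adjusted p = 7.46e-08). Slc2a3, which encodes the neuronal-type transporter GLUT3, was not called. In the pentose phosphate pathway 3 of 8 genes rose and 4 fell, and Shpk, the sedoheptulose kinase known to restrain M1 activation in mouse macrophages, fell by 2.19 (adjusted p = 2.54e-09).

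More genes of mitochondrial fuel oxidation fell than rose in KO M1. Of 26 genes of the tricarboxylic acid cycle and itaconate synthesis, 15 fell and 4 rose (median -0.40, and -0.77 after quantile normalization). Acod1, which makes itaconate from a cycle intermediate, was 8.07, 7.91, 7.54 and 7.83 in KO M1, against 1.77, -0.58, -0.76 and 1.23 in KO M2 (172-fold, adjusted p = 1.59e-08). Idh1, the cytosolic isocitrate dehydrogenase, was -1.55, -1.28, -1.22 and -1.25 in KO M1, against 1.69, 1.99, 2.02 and 2.1 in KO M2 (difference -3.28, adjusted p = 2.34e-11). Suclg2, a subunit of succinyl-CoA synthetase, fell by 3.02 at its brightest probe (adjusted p = 1.35e-09), while its 4 probes ranged up to 0.21. In the respiratory chain and ATP synthase, 16 of 30 genes fell and 2 rose (median -0.30), and after quantile normalization 27 fell and 0 rose. Ndufa4, a small subunit of the chain, fell by 1.69 (adjusted p = 6.59e-09). In fatty acid oxidation 14 of 28 genes fell and 4 rose: Acaa2, the mitochondrial thiolase, was 1.77, 2.19, 2.48 and 1.94 in KO M1, against 4.96, 4.90, 4.67 and 4.73 in KO M2 (difference -2.72, adjusted p = 8.23e-12). Acsl1, which activates fatty acids, went the other way, at 7.92, 7.74, 7.20 and 7.58 in KO M1, against 2.94, 2.75, 2.72 and 2.42 in KO M2 (30-fold, adjusted p = 1.78e-14).

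**Figure D3:**
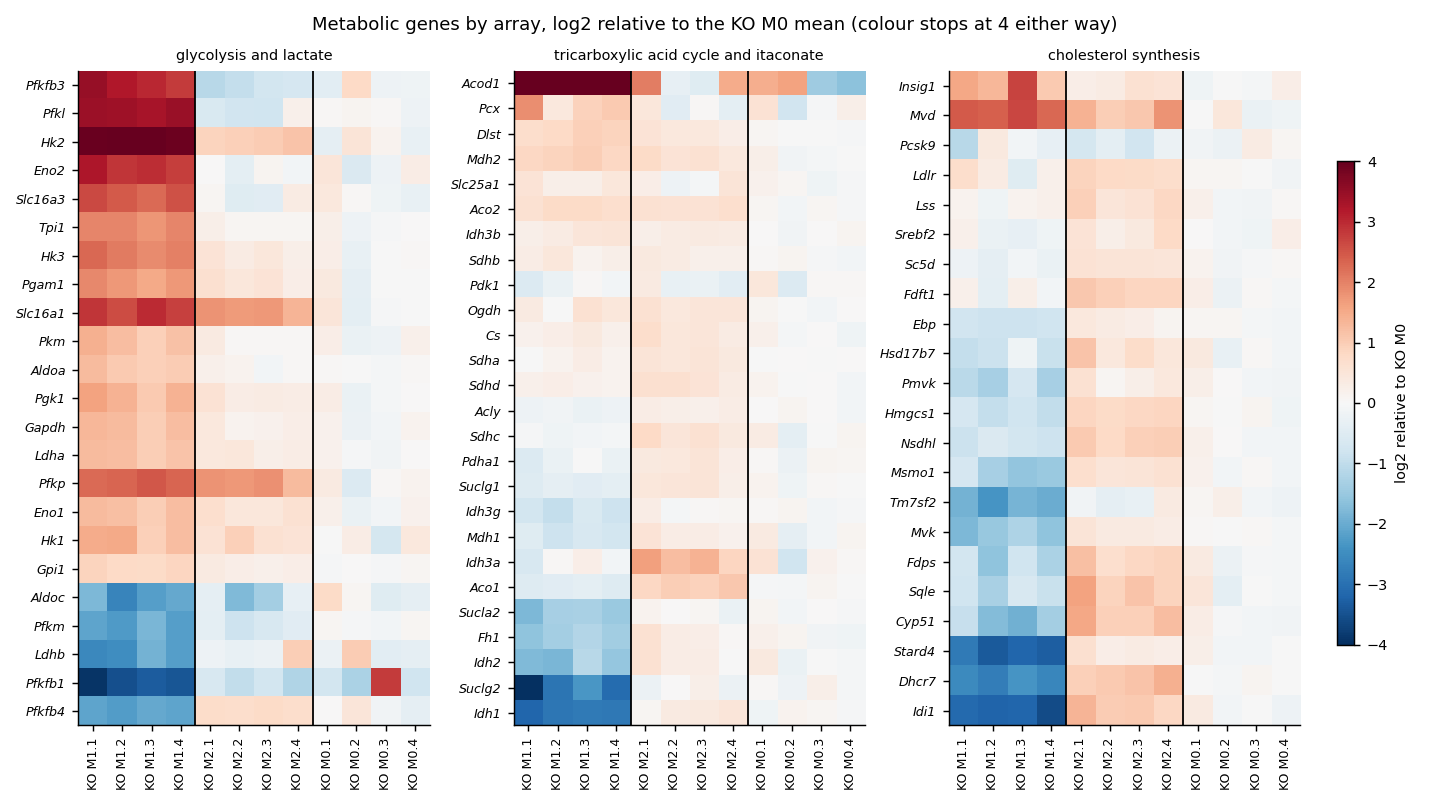
Rows are genes (22 of the 24 sterol synthesis genes), columns the 4 KO M1, 4 KO M2 and 4 KO M0 arrays, and colour the log2 level relative to the KO M0 mean, stopping at 4 either way. Pfkfb3, Pfkl, Hk2 and Acod1 are dark red and Idh1 and Idi1 blue in every KO M1 array.

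Sterol synthesis was lower in KO M1 along nearly the whole pathway. Of 24 genes, 20 fell and 3 rose, with a median of -1.56. Idi1, the isopentenyl diphosphate isomerase, was -0.67, -0.76, -0.73 and -1.11 in KO M1, against 3.80, 3.46, 3.50 and 3.24 in KO M2 (difference -4.32, adjusted p = 4.81e-13). Those that rose included Mvd, the mevalonate diphosphate decarboxylase (2.19-fold, adjusted p = 3.07e-05), and Insig1, which retains the sterol sensor in the endoplasmic reticulum (2.34-fold, adjusted p = 4.08e-04). Of 17 LXR targets and fatty acid synthesis genes 11 fell and 6 rose: the desaturase gene Scd2 fell by 3.09, and the malic enzyme gene Me1, a source of NADPH, was 5.56-fold higher (adjusted p = 1.53e-06 and 7.12e-04).

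Stress-response genes were higher in KO M1. Of 23 measured genes of serine synthesis and of the amino acid response run by the factor ATF4, 15 rose and 2 fell (median 1.99). Slc7a11, the cystine importer, was 3.75, 2.69, 2.23 and 3.23 in KO M1, against -1.18, -2.06, -1.67 and -1.75 in KO M2 (25-fold, adjusted p = 1.66e-07). Trib3, a pseudokinase induced by amino acid shortage, was 6.72, 6.32, 6.44 and 6.53 in KO M1, against 1.63, 2.94, 3.25 and 1.07 in KO M2 (19.4-fold, adjusted p = 1.38e-05), and Ddit3, which encodes the stress factor CHOP, was 12.9-fold higher (adjusted p = 1.09e-08). The serine synthesis enzyme Phgdh had overlapping groups and a difference of -1.24 whose call did not hold under 7 of 18 other settings (adjusted p = 0.0466). Of 24 genes of the unfolded protein response, 19 rose and 1 fell (median 0.79), and 11 rose and 1 fell after quantile normalization (median 0.40). Dnajb9, a chaperone of the endoplasmic reticulum, was 5.26, 4.66, 4.49 and 4.76 in KO M1, against 2.44, 2.60, 2.45 and 2.57 in KO M2 (4.86-fold, adjusted p = 2.03e-11). Derl1, of the machinery that exports misfolded proteins, was 4.15-fold higher, and the 1 member that fell was the sensor kinase gene Eif2ak3, by 1.11 (adjusted p = 5.66e-05 and 1.68e-08).

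Targets usually assigned to hypoxia-inducible factors were higher in 12 of 17 cases and lower in 1 (median 1.87). Vegfa, the angiogenic growth factor gene, was 6.18, 6.26, 5.93 and 6.21 in KO M1, against 0.85, 0.01, 0.27 and 0.73 in KO M2 (51.3-fold, adjusted p = 5.24e-10). Adm, which encodes the vasodilator adrenomedullin, was 50.1-fold and the prolyl hydroxylase gene Egln3 30.6-fold higher (adjusted p = 5.57e-10 and 1.03e-05), each well above background on 2 of 4 KO M2 arrays. Of 18 NRF2 and glutathione genes 13 rose and 3 fell, with Gclm, a subunit of the rate-limiting enzyme of glutathione synthesis, 5.22-fold higher (adjusted p = 2.80e-07). In hexosamine synthesis Gfpt1, which commits fructose 6-phosphate to the pathway, was 6.04-fold higher, and Nagk, which salvages N-acetylglucosamine, fell by 2.36 (adjusted p = 3.11e-12 and 3.29e-12).

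Iron, lysosome and matrix genes gave mixed counts, beside 34.3% of all genes higher and 23.1% lower. Of 11 genes of iron handling 7 rose and 2 fell, and the median of 0.56 became -0.01 after quantile normalization. Hamp, the gene of the iron hormone hepcidin, was 0.16, 0.68, 0.62 and 0.67 in KO M1 and was not well above background on any KO M2 array, an at least 69-fold difference (adjusted p = 9.67e-06). Tfrc, the transferrin receptor, fell by 3.15 (adjusted p = 8.04e-09), and Lcn2, which sequesters bacterial siderophores, was 7.6-fold higher (adjusted p = 0.00156). Of 30 lysosomal genes 19 rose and 8 fell (median 0.46), but after quantile normalization 9 rose and 9 fell (median -0.09). The cathepsin gene Ctsc was 3.36-fold higher and the glucuronidase gene Gusb fell by 2.62 (adjusted p = 6.84e-04 and 2.31e-13). The other Gusb probe differed by -0.52. Of 16 metalloproteinase and inhibitor genes 7 rose and 4 fell: Mmp14, a membrane-bound collagenase, was 46.2-fold higher, Mmp25 at least 79.7-fold higher, and the inhibitor Timp2 fell by 2.88 (adjusted p = 9.21e-08, 3.29e-12 and 5.49e-08). Ocstamp, a fusion gene of multinucleated macrophages, fell by 3.59 (adjusted p = 2.27e-05), as did 5 others of 13 osteoclast and fusion genes, while 2 rose.

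Proliferation genes were far lower in KO M1. Of 18 mitotic genes 17 fell (median -4.36), and of 21 DNA replication genes 17 fell and 1 rose (median -3.13). Kif11, the spindle motor gene, was not well above background on any KO M1 array, against 1.54, 1.55, 1.83 and 0.77 in KO M2, and was at least 106-fold lower in KO M1 (adjusted p = 1.31e-11). Ccna2, the cyclin of S phase and mitotic entry, was -2.95, -2.75, -2.19 and -3.67 in KO M1, against 4.37, 4.44, 4.73 and 3.77 in KO M2 (difference -7.22, adjusted p = 4.87e-12). Rrm2, a subunit of ribonucleotide reductase, was -2.35, -1.86, -1.71 and -2.32 in KO M1, against 4.88, 4.37, 4.66 and 3.36 in KO M2 (difference -6.38, adjusted p = 9.28e-10). The KO M0 means of 1.4 for Kif11, 4.24 for Ccna2 and 3.76 for Rrm2 lay near those of KO M2, 1.42, 4.33 and 4.32, and far from those of KO M1. Pbk, Neil3 and Pimreg, all known cell cycle genes, were also among the 15 genes lowest in KO M1, with differences from -8.12 to -7.09 (largest adjusted p = 1.12e-10). E2f7, Kif14 and Esco2, also cell cycle genes of those 15, were not well above background on any KO M1 array and were at least 106-fold, 52.6-fold and 40.1-fold lower there (largest adjusted p = 6.63e-11), although other probes of E2f7 and Kif14 ranged to 0.40 and -0.17. The 1 replication gene that rose was Ccne1, the cyclin of S phase entry (6.26-fold, adjusted p = 1.71e-04). Of the remaining genes of those 15, Gfra2 and Gprc5c had differences of -7.70 and -6.79, and Rasgrp3, not well above background on any KO M1 array, was at least 71.6-fold lower there (largest adjusted p = 5.76e-06). The other probe of Gfra2 stood at 1.52.

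**Figure D4:**
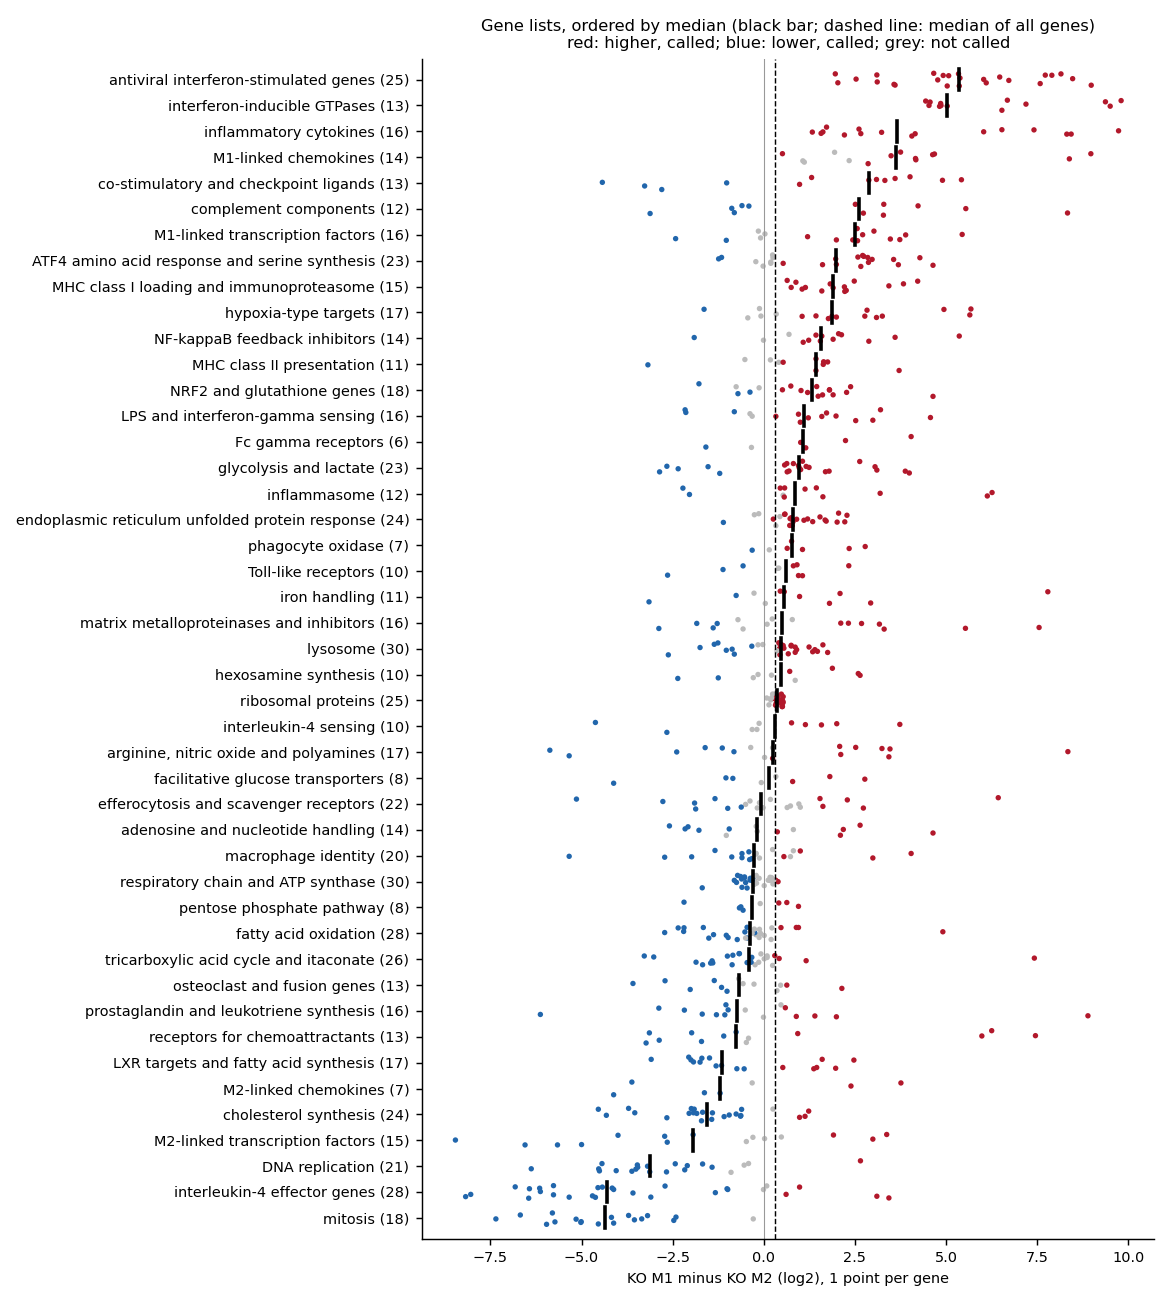
Each row is a gene list with its number of measured genes, and each point a gene at its KO M1 minus KO M2 log2 difference on the horizontal axis, red if called higher, blue if called lower and grey if not called. Black bars are list medians and the dashed line the median of all genes, 0.31, with antiviral genes at 5.34 at the top and mitosis at -4.36 at the bottom.

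Not all of the largest rises were classical activation genes. Wnk2, a kinase of ion transport, was 6.15, 5.48, 5.78 and 5.83 in KO M1, against -3.60, -4.66, -4.63 and -1.12 in KO M2 (635-fold, adjusted p = 2.93e-10). Slc6a19, known as a neutral amino acid transporter of intestine and kidney, was 2.97, 1.93, 1.21 and 2.39 in KO M1 and not well above background on any KO M2 array, an at least 198-fold difference (adjusted p = 1.14e-12). Vnn3, of the pantetheinase family, had a difference of 8.87, and Clic5, a chloride channel-like gene, of 8.72 with its other probe at 1.1 (adjusted p = 1.56e-07 and 2.12e-11). Ifit1bl1 and Rtn4r completed the 15 highest, at 8.58 and 8.51 (adjusted p = 2.31e-08 and 5.50e-11).

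The gap between the states was compared between KO and WT cells. LysM-Cre was described for the KO mice only, so Cre and the deletion of Slc2a1 cannot be told apart here. The test was the KO M1 minus KO M2 difference less the WT M1 minus WT M2 difference. That test called 7704 genes (29.8%), 3539 of them more positive in KO cells (13.7%) and 4165 more negative (16.1%). The WT contrast of M1 minus M2 called 12421 genes (48.1%). Of the 8870 genes higher in KO M1, 4986 were also called higher in WT M1, 565 were called lower there and 3319 were not called. Of the 5976 lower genes, 3289 were also called lower in WT M1, 558 higher, and 2129 were not called. Within a state, KO M1 against WT M1 called 11406 genes (44.2%), and KO M2 against WT M2 called 11 (0.0426%). The 2 within-genotype contrasts share no arrays, but the test of their difference reuses both.

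The difference between states was called different between genotypes for some markers and not for others. Nos2, Cxcl10, Ptgs2, Il12b, Il6 and Tnf were not called different between KO and WT (adjusted p from 0.129 to 0.935). Arg1 averaged 1.05 ± 0.62 in KO M1 and 6.92 ± 0.12 in KO M2, beside 6.1 ± 0.18 in WT M1 and 7.35 ± 0.27 in WT M2 (SD, n = 4 each). It had a KO difference of -5.87 and a WT difference of -1.26, a difference between genotypes of -4.61 ± 0.53 (SE, adjusted p = 1.19e-06). Retnla went the other way, with -8.18 in KO cells and a fitted -14.70 in WT cells, where no WT M1 array was well above background. That difference between genotypes was called (adjusted p = 0.0162) but not without set 4 (adjusted p = 0.0814). Mrc1 had -4.16 in KO and -6.83 in WT (2.67 ± 0.61 SE, adjusted p = 0.00181). Of the 28 IL-4 effector genes, 8 had a more positive difference in KO cells and 3 a more negative one, beside 13.7% and 16.1% of all genes.

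Genes of the endoplasmic reticulum stress response differed between genotypes. Of 24, 22 had a more positive difference in KO cells, beside 13.7% of all genes, and the list's median was 0.79 in KO and -0.54 in WT. Dnajb9 averaged 4.79 ± 0.33 in KO M1 and 2.51 ± 0.08 in KO M2, beside 2.32 ± 0.15 in WT M1 and 2.57 ± 0.18 in WT M2 (SD, n = 4 each). It differed by 2.28 in KO and by -0.25 in WT cells (2.53 ± 0.19 SE, adjusted p = 1.88e-08). Derl3, another gene of misfolded protein export, differed by 2.22 in KO and -3.99 in WT cells (6.21, adjusted p = 3.63e-09). Of 23 genes of the ATF4 list 10 were more positive in KO cells and 1 more negative, with Ddit3 at 3.69 in KO and 1.60 in WT (adjusted p = 0.00206) and Phgdh at -1.24 in KO and -4.48 in WT (adjusted p = 0.00166). Ribosomal protein genes gave 24 of 25 more positive in KO cells, with medians of 0.37 in KO and -0.91 in WT. The KO median depended on the scaling and was -0.22 after quantile normalization. Their WT median and their difference between genotypes were not examined under that setting. Of the 25 genes, 18 were higher in KO M1 and 0 lower on the main scale, and 0 higher and 10 lower after quantile normalization. Rps23 and Rpl23 had differences of 0.52 and 0.53, and of -0.08 and -0.07 after quantile normalization.

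**Figure D5:**
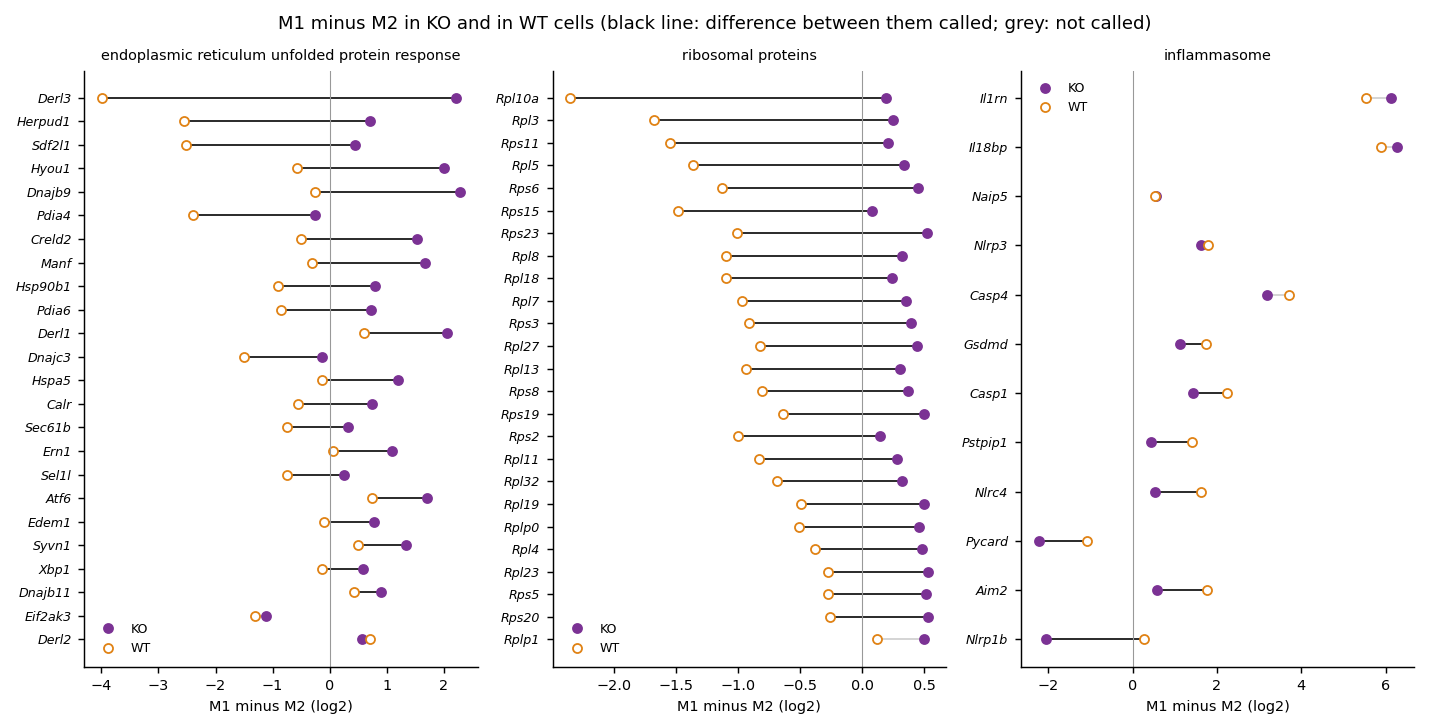
Each row is a gene, with the M1 minus M2 log2 difference on the horizontal axis as a filled point for KO cells and an open point for WT cells. Black lines join the points where the difference between genotypes was called, as for 22 of 24 unfolded protein response genes, 24 of 25 ribosomal protein genes and 7 of 12 inflammasome genes.

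Among metabolic genes, Hk2 differed by 3.10 in KO and 1.37 in WT cells (1.73 ± 0.29 SE, adjusted p = 1.00e-04) and Vegfa by 5.68 in KO and 3.11 in WT (adjusted p = 0.0023). Pfkl and Gfpt1 were likewise more positive in KO cells, by 0.92 and 1.07. Falls that were larger in KO cells included Acaa2 (-2.72 in KO and -1.08 in WT), Shpk (-2.19 and -0.11), Suclg2 (-3.02 and -1.57), Ndufa4 (-1.69 and -0.67), Idh1 (-3.28 and -2.37) and Nagk (-2.36 and -1.57). Insig1 and Mvd were higher in KO M1 and lower in WT M1 (1.23 and 1.13 in KO, -1.4 and -1.39 in WT, adjusted p = 1.23e-05 and 5.30e-07). Of the 28 fatty acid oxidation genes, 11 had a more negative difference in KO cells and 5 a more positive one, beside 16.1% and 13.7% of all genes. For Slc7a11, Gclm and Pfkfb3 no difference between genotypes was called (adjusted p = 0.828, 0.999 and 0.197).

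Immune genes with a more negative difference in KO cells included Tlr8 (-2.64 in KO and -0.03 in WT, adjusted p = 8.55e-06), Cd80 (-3.27 and -1.73, adjusted p = 3.26e-05) and Batf3 (-5.66 and -2.43, adjusted p = 0.0197). H2-DMb2, at least 4.05-fold lower in KO M1, had a WT difference of -0.27 (adjusted p of the difference between genotypes 8.64e-06). Ccl22 was 2.39 higher in KO M1 and differed by -1.16 in WT cells (adjusted p = 0.013). Of 12 inflammasome genes, 7 had a more negative difference in KO cells, beside 16.1% of all genes. Mitotic genes had a more positive difference in KO cells in 7 of 18 cases, beside 13.7% of all genes, with Cenpf at -6.68 in KO and a fitted -9.47 in WT, where no WT M1 array was well above background (adjusted p = 5.80e-04).

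The largest differences between genotypes included genes with a small or unmeasured difference in WT cells. Lpar3, a lysophosphatidic acid receptor, was -0.18, 1.32, 1.42 and 0.98 in KO M1 and not well above background on any KO M2 array, an at least 73.1-fold difference. No WT M1 or WT M2 array was well above background for Lpar3, and the fit called the difference between genotypes (adjusted p = 1.26e-08). For Hamp, at least 69-fold higher in KO M1, the difference between genotypes was called (adjusted p = 0.00196), on WT arrays of which 3 of 4 WT M1 and 1 of 4 WT M2 were well above background. Kif1a, known as an axonal transport motor, was 4.66, 4.72, 4.56 and 4.55 in KO M1 against -2.07, -2.55, -2.55 and -1.02 in KO M2, a difference of 6.67, beside 0.61 in WT cells (adjusted p = 9.59e-08). Rtn4r, Efcc1 and Rasd2 had KO differences of 8.51, 6.28 and 6.72 and fitted WT differences of 1.73, 0.19 and 0.74, and no WT M2 array was well above background for Rtn4r or Efcc1. On the negative side, Cd300lb, an activating receptor of myeloid cells, was -1.03, -0.75, -0.67 and -1.23 in KO M1, against 4.49, 4.60, 4.43 and 4.47 in KO M2, a difference of -5.42 beside -1.84 in WT cells (adjusted p = 1.35e-08). Prr15 had -3.12 in KO and 0.51 in WT, and Gpr18, a receptor of lipid mediators, 1.81 in KO and 5.29 in WT (adjusted p = 1.73e-05 and 9.36e-06). Apcdd1 and Bex1, with KO differences of 1.88 and -0.93 that were not called (adjusted p = 0.0778 and 0.454), entered through fitted WT differences of -4.61 and -7.0, with no WT M1 array well above background. Tlr12 and Sectm1a entered through WT differences of 4.88 and 4.40, beside uncalled KO differences of 0.96 and 0.81 (adjusted p = 0.304 and 0.344). With the set as a block the KO differences of Tlr12 and Bex1 were called (adjusted p = 0.011 and 0.0128). Fabp7 and Notch4 fell in KO M1 by 1.13 and 2.02 (adjusted p = 0.0248 and 0.00251), and the other probe of Notch4 stood at 0.44. Dnaaf4, not well above background on any KO M1 array, was at least 2.86-fold lower there (adjusted p = 1.64e-06). Chrm3 was not well above background on any of the 8 arrays, nor on any WT M2 array, so no difference is given.

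The cultures carried macrophage markers, and some markers of other cell types were measured as well. Of 20 macrophage identity genes 18 were well above background on all 8 arrays, and their summed linear level ran from 1.21e+03 to 1.59e+03 in KO M1 and from 1.32e+03 to 1.56e+03 in KO M2. Csf1r, the M-CSF receptor, differed by -0.12 and Cd68 by 0.24, neither called (adjusted p = 0.403 and 0.0509). Of the 20 identity genes 4 rose and 10 fell, beside 34.3% of all genes higher and 23.1% lower. After quantile normalization 2 of them rose and 13 fell. Neutrophil markers summed to 128 to 247 in KO M1 and 74.5 to 303 in KO M2. Of 15, 3 rose and 4 fell, beside 34.3% of all genes higher and 23.1% lower. Ly6g was 10.6-fold higher and Retnlg lower by -5.61 (adjusted p = 2.92e-04 and 6.96e-06). T and NK cell markers summed to 116 to 193 in KO M1 and 32.0 to 42.0 in KO M2, with the IL-7 receptor chain Il7r 1.99 higher (adjusted p = 4.20e-07), the kinase Lck 18.8-fold higher (adjusted p = 4.54e-12), Cd3e not called (0.11, adjusted p = 0.711) and Klrb1c well above background on no array. Those sums did not overlap between the states. Of 9 measured T and NK cell markers 3 rose and 0 fell, beside 34.3% of all genes higher. The 3 were Lck, Il7r and the CD3 chain gene Cd3d. Dendritic cell markers summed to 122 to 135 in KO M1 and 212 to 230 in KO M2, while of 11 measured 7 rose and 2 fell in KO M1. A sum is led by its brightest probes and is compared here only between states. The sums of B cell, stromal, mast cell and erythroid markers overlapped between the states, and the part of any of these cells in the results was not tested.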

How the data were processed

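RNA of 24 macrophage cultures was measured on 1-colour Agilent arrays, 4 arrays for each of KO and WT cells in the M1, M2 and M0 states. The deposited scanner files hold the intensity of each spot, and per the file headers the processed signal was background-corrected by Feature Extraction 10.7.3.1, whereas the submitters' processing notes name version 9.1. Probe coordinates are mm9, per the file headers. The series' processed value table was not used here. Spots flagged as outliers were dropped (68 missing values among the tested genes on the 8 arrays), spots of a probe averaged as log2, and each array's 75th percentile over all gene probes subtracted. Probes well above background on at least 4 of 24 arrays were kept (38857 of 56605). A RefSeq table named 32989 probes (58.3%) by accession, and the others kept the file's name. The brightest probe of each gene gave 25826 genes. limma 3.58.1 in R 4.3.3, checked on simulated data, fitted 1 mean per group over all 24 arrays with 18 residual degrees of freedom and a median residual SD of 0.33. The number of arrays limits the precision.

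The members and gene lists were chosen with earlier results of these data known. Named genes are 18 textbook markers and targeted genes, the 15 largest non-overlapping called differences in each direction, up to 3 members of each list in each direction, and the 10 largest called differences between genotypes in each direction. Values of Stat6, Ccl2, Ccl3, Ccl4, Ccl7, Csf1r, Cd68, Cd3e and of the sex-linked genes stand outside that rule and were chosen after their values were seen. Some genes that the rule names are not reported here. Same-numbered KO M1 and KO M2 arrays deviated from their group means with correlations of 0.273, 0.452, -0.274 and -0.405 for numbers 1 to 4, so the numbers were not taken as pairs. Arrays of the same set, grouped by slide position and not by a label, correlated at 0.273, 0.452, 0.316 and 0.558 for sets 1 to 4, and the set was fitted as a block only as an alternative. Alternatives were quantile normalization, normexp background correction with an offset of 50, no filter, slide, replicate number or set as a block, only the 8 arrays, each array left out, set 4 left out, and the mean of a gene's probes.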

Additional observations from a re-analysis of the deposited data

Results flagged for a closer look

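Of 331 groups of 4 arrays tested for the named genes, 21 held an array farther from the others than Dixon's 95% critical value, and chance gives about 5% of groups. KO M1 replicate 3, of set 4, was low for Il6 (1.68), Cd14 (5.48), Kdm6b (2.58), Ifit1 (5.54), Cd86 (3.95), Lcn2 (4.88), Mmp14 (0.99) and Rps23 (7.49), and high for Clec10a (-1.4), Hk2 (6.28) and Scarb1 (0.35). KO M2 replicate 4, of set 4, was high for Vnn3 (-1.36), Rasd2 (-1.47) and Ldhb (3.86). Outside set 4, KO M1 replicate 1 was low for Hamp (0.16), Efcc1 (-0.25) and Socs2 (-2.34) and high for Casp4 (5.81). KO M2 replicate 1 was low for Tgm2 (3.49), KO M2 replicate 2 high for Retnla (7.84) and KO M2 replicate 3 high for Mgl2 (6.70).

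The KO M1 minus KO M2 difference was called different from the WT M1 minus WT M2 difference for 67 of the named genes (limma, adjusted p under 0.05). Each value below is the KO difference less the WT difference on the log2 scale. It is a fitted value and not a measured size for Lpar3, Hamp, H2-DMb2, Dnaaf4, Chrm3, Retnla, Rtn4r, Efcc1, Apcdd1, Bex1, Pimreg and Cenpf, each of which had at least 1 of the 4 groups with no array well above background. For genes called in KO and in WT cells with opposite signs, it was Derl3 6.21, Insig1 2.63, Mvd 2.52, Rps23 1.53, Rpl23 0.81, Notch4 -3.64 and Fabp7 -3.81. For genes called in KO cells and not in WT cells, it was Lpar3 7.65, Hamp 7.22, Efcc1 6.09, Kif1a 6.06, Rasd2 5.97, Ccl22 3.54, Dnajb9 2.53, Il7r 2.33, Derl1 1.44, Shpk -2.08, Tlr8 -2.61, Cd276 -2.91, H2-DMb2 -2.92, Prr15 -3.63 and Dnaaf4 -3.66. For genes called in WT cells and not in KO cells (Tlr12 and Bex1 were called in KO cells with the set as a block), it was Apcdd1 6.49, Bex1 6.07, Sectm1a -3.60, Chrm3 -3.77 and Tlr12 -3.93. For genes called with 1 sign in both genotypes and further from 0 in KO cells, it was Rtn4r 6.78, Vnn3 4.76, Vegfa 2.58, Slc7a2 2.18, Ddit3 2.09, Kdm6b 1.76, Hk2 1.73, Lck 1.28, Tlr2 1.23, Cd40 1.08, Gfpt1 1.07, Tnfaip3 0.98, Pfkl 0.92, Nagk -0.79, Ifngr1 -0.82, Idh1 -0.90, Ndufa4 -1.02, Gusb -1.12, Irak4 -1.45, Suclg2 -1.45, Gatm -1.51, Cd80 -1.54, Scarb1 -1.62, Scd2 -1.63, Acaa2 -1.64, Clec10a -2.40, Batf3 -3.22, Cd300lb -3.58 and Arg1 -4.61. For those further from 0 in WT cells, it was Retnla 6.52, P2ry1 3.44, Phgdh 3.25, Pimreg 2.88, Cenpf 2.79, Mrc1 2.67, Socs2 1.4, Tfrc 1.14, Il4ra -1.18, H2-Oa -1.98 and Gpr18 -3.48.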

How the results depend on the processing

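All 71 counts of called genes recomputed under 18 other settings stayed within 1.5 times their values in the report. Leaving out 1 of the 8 arrays gave 13613 to 15227 called genes, 7913 to 9407 higher and 5653 to 5908 lower in KO M1, and 7238 to 7710 different between genotypes. Adding the replicate number as a block gave 15197, 9082, 6115 and 8229 in the same order, with no opposite call, and the set as a block 17044, 10436, 6608 and 9853. Without set 4 the counts were 16448, 10153, 6295 and 8580. Genes called in the opposite direction numbered 61 under quantile normalization, 102 when all probes of a gene were averaged and 0 under the other settings. Of 2941 recomputed differences of named genes, 20 lost the call, 4 gained it and 10 changed sign. The losses fell on Lyz2 (8 settings), Phgdh (7), Fabp7 (4) and Notch4 (1). The gains were Apcdd1 with only the 8 arrays, Bex1 and Tlr12 with the set as a block, and Sectm1a without KO M2 replicate 2. Of 339 recomputed differences between genotypes, 2 lost the call, Retnla without set 4 (5.26, adjusted p = 0.0814) and Notch4 as the mean of its probes (-0.87, adjusted p = 0.596), and 1, Chrm3, changed sign. Mgl2 gave -0.49 under quantile normalization, -0.07 to 0.34 with 1 array left out (-0.02 without KO M1 replicate 4), -4.97 as the mean of its probes and -0.07 when arrays were scaled by the 75th percentile of probes above background on all arrays, a setting chosen after seeing the data. Chrm3 gave 0.28 with normexp, 1.58 with no filter (1.05 for its difference between genotypes) and from -0.69 to 0.16 with 1 array left out. Under quantile normalization Rps23 gave -0.08 and Rpl23 -0.07, and the list medians were -0.22 for ribosomal proteins, -0.09 for lysosome, -0.01 for iron handling and -0.02 for stromal markers, which were also -0.02 under the setting chosen after seeing the data. Glucose transporters gave -0.02 without set 4 and under that setting, and -0.24 as the mean of probes. The pentose phosphate median was 0.05 as the mean of probes. Arginine genes gave -0.01 and adenosine genes 0.01 without set 4, and adenosine genes from -0.33 to 0.01 with 1 array left out. Efferocytosis genes gave 0.02 with normexp, -0.18 to 0.06 with 1 array left out (0.01 without KO M2 replicate 3), 0.08 without set 4 and 0.05 as the mean of probes. Mast cell markers gave -0.32 to 0.99 with 1 array left out. Of 936 recomputed list medians, 87 moved beyond their spread with the sign kept and 18 changed sign. The cause was not tested. Of 414 listed or named genes with several probes, 16 had probes called in both directions.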
